A study of Mus musculus with 6 samples.

Results

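The genes of 10 hypothalamic neuropeptides, Pmch, Hcrt, Oxt, Avp, Agrp, Pomc, Cartpt, Trh, Gal and Ghrh, were followed through 6 brain RNA-seq libraries. They were taken by gene symbol, and all 10 were found among the 38087 genes of the deposited table. The list was selected on earlier results of these libraries, in particular the high counts of Pmch and Hcrt in 1 library, so the values below are a description. They also stood in the fit over all genes, which is given for them only as counts of calls and as fold changes with standard errors (SE). No p-value is given for them, and the SE are not read as a test. The libraries came from mice labelled as C57BL6 in both groups, 3 wild-type (WT) and 3 haploinsufficient for Shugoshin-1 (Sgo1-/+), which carry 1 working copy of a gene that protects chromosome cohesion. All mice were untreated and 24 months old. The paper describes the tissue as cerebrum with cortex and hippocampus, from which olfactory bulb, cerebellum and medulla had been removed. The sources used here do not say whether the hypothalamus was kept. Each group had 1 male, WT replicate 1 and Sgo1-/+ replicate 2, and 2 females. The WT libraries belonged to sequencing run 258 and the Sgo1-/+ libraries to run 259, so genotype and run cannot be told apart.

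The hypothalamus is a small region at the base of the brain whose neurons release peptides that govern feeding, sleep, water balance, stress and reproduction. Each peptide is cut from a longer precursor, packed into dense core vesicles, and made by neurons of 1 or a few nuclei. Pmch (pro-melanin-concentrating hormone) and Hcrt (hypocretin, or orexin) mark separate neurons that lie intermixed in the lateral hypothalamus, where the former are known for feeding and sleep and the latter for keeping the animal awake. Oxt (oxytocin) and Avp (arginine vasopressin) are made by large neurons of the paraventricular and supraoptic nuclei, and Avp also by the suprachiasmatic nucleus. Agrp, which drives feeding, Pomc, which restrains it, and Ghrh, which releases growth hormone, belong to the arcuate nucleus. Trh, Gal and Cartpt are made in several nuclei and also outside the hypothalamus.

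The stretches just before the start sites of Pmch, Hcrt, Oxt and Avp are shown because these genes had the largest differences between single libraries. They come from RefSeq on build GRCm38.p6 and are the 250 bases upstream of each start, written 5′ to 3′ on the gene's strand. Capitals mark the TATA box, searched as TATAAA. They also mark the half-site of nuclear receptors, searched as AGGTCA. The last motif marked is the E-box, searched as CACGTG. All were searched on both strands, and no match overlapped another.
Pmch (chr10:88090822-88091071, + strand): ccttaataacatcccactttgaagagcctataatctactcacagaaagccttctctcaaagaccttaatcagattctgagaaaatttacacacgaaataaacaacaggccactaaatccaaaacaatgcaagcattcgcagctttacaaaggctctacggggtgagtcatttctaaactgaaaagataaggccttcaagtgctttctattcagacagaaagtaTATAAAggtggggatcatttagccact
Hcrt (chr11:100762932-100763181, - strand): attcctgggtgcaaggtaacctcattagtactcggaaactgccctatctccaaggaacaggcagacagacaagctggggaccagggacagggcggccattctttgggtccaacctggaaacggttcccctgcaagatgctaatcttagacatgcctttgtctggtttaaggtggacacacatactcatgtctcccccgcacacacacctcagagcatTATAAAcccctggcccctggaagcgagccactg
Oxt (chr2:130575919-130576168, + strand): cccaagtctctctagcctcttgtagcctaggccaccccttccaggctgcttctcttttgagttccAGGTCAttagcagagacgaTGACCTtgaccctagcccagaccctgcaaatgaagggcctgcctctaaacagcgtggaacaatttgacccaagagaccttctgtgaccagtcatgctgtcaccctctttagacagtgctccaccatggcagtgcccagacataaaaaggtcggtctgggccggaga
Avp (chr2:130582589-130582838, - strand): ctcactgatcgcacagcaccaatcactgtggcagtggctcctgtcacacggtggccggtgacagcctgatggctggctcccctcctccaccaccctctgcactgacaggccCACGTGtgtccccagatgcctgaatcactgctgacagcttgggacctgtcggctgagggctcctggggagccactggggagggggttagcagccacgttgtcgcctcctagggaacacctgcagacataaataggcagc
Pmch and Hcrt each held TATAAA, starting 27 and 33 bases before the start site, while Oxt held AGGTCA in both orientations and Avp held CACGTG. Start sites were given for 9 of the 10 genes. TATAAA stood in 4 of the 9 (Pmch, Hcrt, Pomc and 1 of the 2 starts of Ghrh) and in 12.4% of 32851 promoters of this length. AGGTCA stood in 4 of the 9 (Oxt, Pomc, Trh and Ghrh) and in 14.0% of all promoters, and CACGTG in 1 of the 9 and in 6.02%. The counts out of 9 are per gene, with 2 starts for Ghrh, while the percentages are per promoter. Only exact matches were searched, so near variants of a motif were not marked. The motifs were chosen after the counts were seen, and a match describes letters, not a bound site.

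Oxt and Avp are neighbours on chromosome 2 of mm10, where Oxt lies at 130576173 to 130577054 on the + strand and Avp at 130580620 to 130582554 on the - strand, 3565 bases apart. Their coding sequences are alike where they encode neurophysin, the carrier protein of both hormones. The longest stretch that the transcripts of both genes share without a mismatch is 127 bases, inside the coding part of both. It is shown because it is where the messages of both hormones cannot be told apart by their letters.
Oxt and Avp, shared stretch: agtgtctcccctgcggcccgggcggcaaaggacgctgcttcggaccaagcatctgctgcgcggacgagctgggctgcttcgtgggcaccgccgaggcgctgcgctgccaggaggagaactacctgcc
The sequenced reads, paired and 150 bases long, were longer than this stretch.

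Depth was even, with 11123917 to 12505561 estimated counts per library, and 3 counts corresponded to between 2.86 and 3.07 normalized counts (counts scaled to a common library size). Values at or under 3 counts were taken as having no order. The targeted gene itself, listed under its older symbol Sgol1, had 0, 7 and 0 counts across WT replicates 1 to 3 and 4, 2 and 0 across Sgo1-/+ replicates 1 to 3, too few for a check of genotype. Xist and Ddx3y matched the labelled sex in all 6 libraries. Markers of the dissected regions were present in every library, but 3 libraries stood apart. In WT replicate 1, all 8 genes of a cerebellum and hindbrain list were at their highest and all 8 cortex and all 8 striatum genes at their lowest. The cerebellum and hindbrain list summed to 15350 normalized counts there and to between 186 and 510 elsewhere. The counts of that library thus differ from the described dissection, and the tissue it held was not tested. In Sgo1-/+ replicate 3, 7 of 8 thalamus genes and 5 of 8 hippocampus genes were at their highest. In Sgo1-/+ replicate 2, all 8 striatum genes were at their highest and 5 of 8 cerebellum and hindbrain genes at their lowest. Genes of monoamine neurons of midbrain and brain stem summed to between 315 (Sgo1-/+ replicate 3) and 645 (WT replicate 1) normalized counts. Of these 8 genes, 5 were highest and 1 was lowest in WT replicate 1. Tph2, named after its values were seen, had 80.6 there and between 1.90 and 18.4 elsewhere. Between genotypes, 0 genes of any region or cell type list were called. Because of these 3 libraries, results are given per library.

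Pmch and Hcrt were high in Sgo1-/+ replicate 3 alone. Pmch (ENSMUSG00000035383, chromosome 10 of mm10, 88091072 to 88092375) had 5.04, 5.71 and 3.04 normalized counts across WT replicates 1 to 3. It had 0.993, 19.3 and 274 across Sgo1-/+ replicates 1 to 3. Sgo1-/+ replicate 3 thus held 89.0% of the counts over the 6 libraries, and the next highest library was Sgo1-/+ replicate 2. The ratio between these 2 libraries was 14.2 (95% interval of the counts 8.94 to 24.03). Hcrt (ENSMUSG00000045471, chromosome 11, 100761069 to 100762931) had 2.01, 0 and 2.03 normalized counts across WT replicates 1 to 3, and 3.97, 8.11 and 101 across Sgo1-/+ replicates 1 to 3. Sgo1-/+ replicate 3 held 86.3% of these counts, 12.5 times those of Sgo1-/+ replicate 2 (95% interval 6.10 to 29.7). The intervals here and below cover counting error only, because no molecular identifiers separated molecules from copies.

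Both genes are known from neurons that sit side by side, and their ratio could be read in 2 libraries. Hcrt made up 27.0% of the summed counts of Hcrt and Pmch in Sgo1-/+ replicate 3 (99 of 367 counts, exact binomial 95% interval 22.5 to 31.8%). It made up 29.6% in Sgo1-/+ replicate 2 (8 of 27 counts, 13.8 to 50.2%). The share in the lower library thus lay within counting error of that in the higher one, but its interval is wide and would also hold quite different shares. The counts of Pmch in both also share exon bases with Parpbp, as given below. The other 4 libraries had between 5 and 7 counts of both genes together. Among the 16310 genes with a mean of at least 10 normalized counts, only Abhd12b (93.8%) had a larger share of its counts in Sgo1-/+ replicate 3 than Pmch and Hcrt. Both reached that mean only through Sgo1-/+ replicate 3 and were selected for it, so this place is a description. Prl, the pituitary hormone prolactin, followed with 82.1%. Abhd12b was named after its values were seen.

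**Figure D1:**
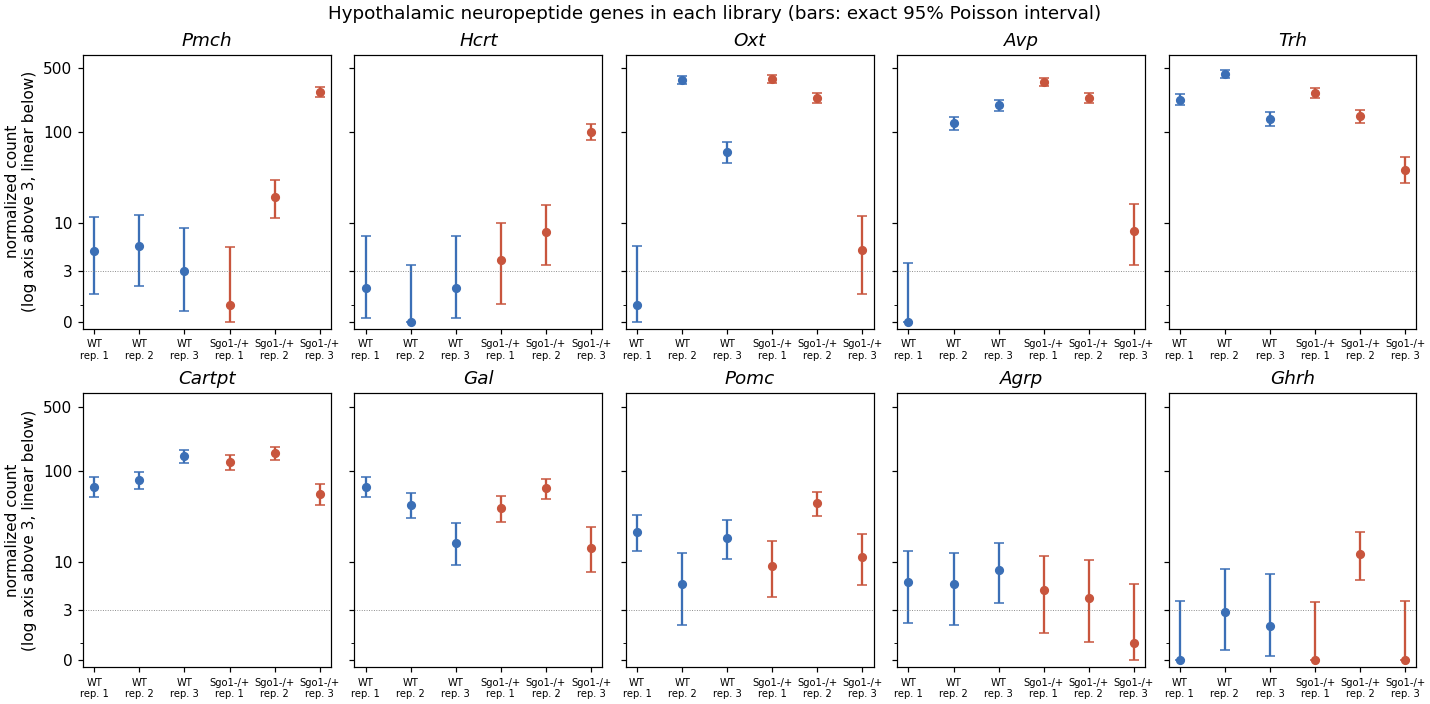
Normalized counts of the 10 neuropeptide genes in each of the 6 libraries (y axis, logarithmic above 3 counts and linear below; blue, WT; red, Sgo1-/+; bars, exact 95% Poisson intervals of the counts). Pmch (274) and Hcrt (101) are high in Sgo1-/+ replicate 3, while Oxt and Avp are at most 8.19 in WT replicate 1 and Sgo1-/+ replicate 3 and at least 60.9 in the other 4 libraries.

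The counts of Pmch share their place in the genome with another gene. Parpbp runs against Pmch and shares 435 of its 749 exon bases, in 2 of its 3 exons, and the use of strand in the counting is not given in the sources used here. Parpbp had 11.1, 20.9 and 12.2 normalized counts across WT replicates 1 to 3 and 2.98, 11.1 and 145 across Sgo1-/+ replicates 1 to 3. It was thus also highest in the library with the most Pmch, and reads of the pair cannot be told apart there. Parpbp made up 34.6% of the summed counts of the pair in Sgo1-/+ replicate 3 and 36.7% in Sgo1-/+ replicate 2, against 68.8 to 80.0% in the other 4 libraries, which had at most 28 counts. Of a list of 6 other genes known in orexin or melanin-concentrating hormone neurons (Lhx9, Nptx2, Pdyn, Qrfp, Tacr3 and Rfx4), 0 were highest and 2 were lowest in Sgo1-/+ replicate 3. The lowest were Tacr3, with 22.5 normalized counts there and 51.4 to 93.7 elsewhere, and Qrfp, with 0 there and 2.01 to 7.09 elsewhere, on few counts. Both were named after their values were seen. Lhx9, a transcription factor of orexin neurons that the thalamus also expresses, had 94.1 normalized counts there, 135 in WT replicate 1 and at most 35.2 elsewhere (named after its values were seen). Pdyn, which orexin neurons also make, had 375 normalized counts in that library and between 113 and 945 in the others. Pdyn, Nptx2 and Rfx4 are all expressed widely outside the hypothalamus.

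Some markers of other regions and cell types were also high in Sgo1-/+ replicate 3. The median log2 ratio of the 8 thalamus genes there to their median library was 1.67, with 2114 normalized counts of Prkcd there and between 142 and 537 elsewhere. The summed level of the thalamus list was 4318 normalized counts in that library, 817 to 972 in the other two Sgo1-/+ libraries and 572 to 1410 in WT. The summed level of the 9 pituitary genes was 316 normalized counts, against 5.96 to 10.1 in the other two Sgo1-/+ libraries and 21.9 to 61.9 in WT. Prl made up 297 of these, while growth hormone (Gh), the other abundant pituitary transcript, had 3.07 and Fshb was at 0 in all libraries. Of 19 hypothalamic transcription factors that exceeded 3 counts in some library, 2 were highest and 1 lowest in Sgo1-/+ replicate 3. The lowest was Otp, which the paraventricular nucleus needs, with 2.05 normalized counts there and between 8.06 and 12.2 elsewhere. Its value was 8.06 in WT replicate 1, and all of these rest on few counts. Sim1, of the same list, had 10.2 in Sgo1-/+ replicate 3 and between 3.02 and 27.4 elsewhere. Lmx1a, a transcription factor of the caudal hypothalamus and neighbouring midbrain had 16.4 normalized counts in Sgo1-/+ replicate 3, 22.2 in WT replicate 1 and at most 2.03 elsewhere. Otp, Sim1 and Lmx1a were named after their values were seen. Of 12 genes that the choroid plexus expresses strongly, a list added after the data were seen, 9 were highest in Sgo1-/+ replicate 3. Their summed level was 38107 normalized counts there, 3582 to 5456 in the other two Sgo1-/+ libraries and 4331 to 32100 in WT, with the upper value in WT replicate 1, where Pmch and Hcrt were low. Ttr, the transthyretin gene, made up 21819 and 20028 of these in Sgo1-/+ replicate 3 and WT replicate 1. The part of the tissue's make-up in the counts of Pmch and Hcrt was not tested. In bulk tissue, fewer cells of a type and less RNA per cell cannot be told apart.

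Oxt and Avp were nearly absent from WT replicate 1 and Sgo1-/+ replicate 3 and well measured in the other 4 libraries. Oxt (ENSMUSG00000027301) had 1.01, 369 and 60.9 normalized counts across WT replicates 1 to 3 and 380 (interval 343 to 421), 237 and 5.12 across Sgo1-/+ replicates 1 to 3. Avp (ENSMUSG00000037727) had 0, 125 and 196 across WT replicates 1 to 3 and 356, 235 and 8.19 across Sgo1-/+ replicates 1 to 3. Both genotypes therefore had 1 library with hardly any transcript of either hormone. The sum of Oxt and Avp was 1.01 in WT replicate 1, 13.3 in Sgo1-/+ replicate 3 and from 257 to 736 elsewhere. The lowest of the 4 libraries with higher sums was 19.3 times the sum in Sgo1-/+ replicate 3. The library with the most Pmch and Hcrt was therefore among the 2 with the least Oxt and Avp. The other such library, WT replicate 1, had 5.04 normalized counts of Pmch and 2.01 of Hcrt.

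The balance between Oxt and Avp also differed among libraries. Avp made up 25.3% of their summed counts in WT replicate 2 (131 of 518, exact binomial 95% interval 21.6 to 29.3%) and 76.3% in WT replicate 3 (193 of 253, 70.6 to 81.4%). In Sgo1-/+ replicates 1 and 2 it made up 48.3% (358 of 741, 44.7 to 52.0%) and 49.8% (232 of 466, 45.2 to 54.4%). The 2 WT libraries thus lay on either side of both Sgo1-/+ libraries, and their intervals overlapped neither each other nor those of the Sgo1-/+ libraries. Most of the gap within WT was in Oxt, which was 6.05 times higher in WT replicate 2 than in WT replicate 3 (95% interval 4.60 to 8.09). Avp was 1.57 times higher in WT replicate 3 (1.25 to 1.97). WT replicates 2 and 3 and Sgo1-/+ replicate 1 were females and Sgo1-/+ replicate 2 was a male. Each genotype had 1 male, and Avp was at 0 in the WT male and at 235 in the Sgo1-/+ male.

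**Figure D2:**
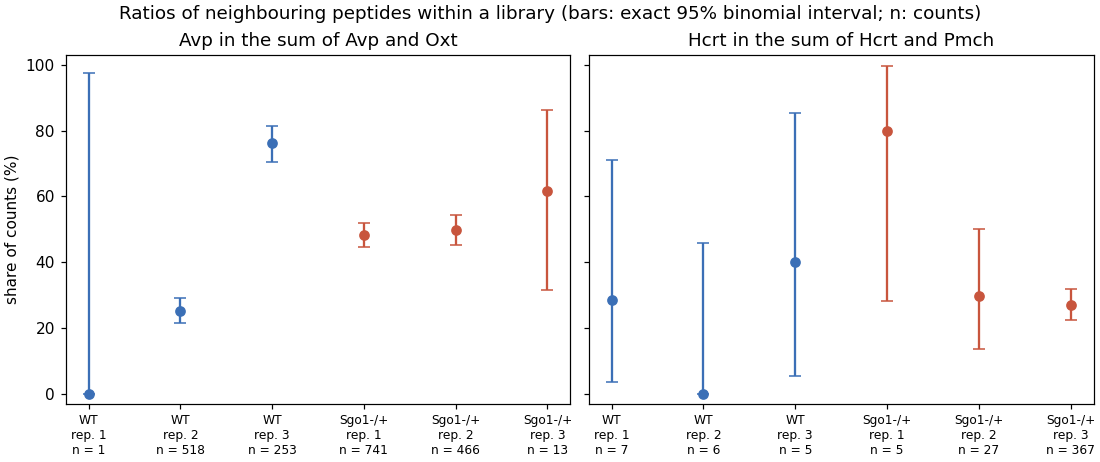
Share of Avp in the summed counts of Avp and Oxt (left) and of Hcrt in the summed counts of Hcrt and Pmch (right) in each library, in percent, with exact 95% binomial intervals and the number of counts (n) under each library; blue, WT; red, Sgo1-/+. Avp is at 25.3% in WT replicate 2 and 76.3% in WT replicate 3, with Sgo1-/+ replicates 1 and 2 in between, and Hcrt is at 29.6% and 27.0% in Sgo1-/+ replicates 2 and 3, the libraries with more than 7 counts.

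Trh, Cartpt and Gal were measured in every library, and the lowest value of each was in Sgo1-/+ replicate 3, for Cartpt and Gal within counting error of a WT library. Trh, the precursor of thyrotropin-releasing hormone, had 227, 432 and 139 normalized counts across WT replicates 1 to 3 and 268, 149 and 38.9 across Sgo1-/+ replicates 1 to 3. The highest library, WT replicate 2, had 11.1 times the count of the lowest (95% interval 7.98 to 15.9). Unlike Oxt and Avp, Trh was not low in WT replicate 1. Cartpt, which encodes a peptide that reduces feeding and is also made by some Pmch neurons, had 66.5, 78.1 and 144 in WT and 123, 154 and 55.2 across Sgo1-/+ replicates 1 to 3. In the library where Pmch was highest, Cartpt was thus not high, and its interval (41.5 to 72.1) overlapped that of WT replicate 1 (51.4 to 84.6). Gal, the precursor of galanin, had 66.5, 41.9 and 16.2 normalized counts across WT replicates 1 to 3 and 38.7, 63.8 and 14.3 across Sgo1-/+ replicates 1 to 3. It was highest in the male of each genotype, WT replicate 1 and Sgo1-/+ replicate 2, and the intervals of these counts overlapped with that of WT replicate 2, a female (30.4 to 56.2).

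The arcuate genes were near the limit of this depth. Pomc, the precursor of melanocortins and beta-endorphin, had 21.1, 5.71 and 18.3 normalized counts across WT replicates 1 to 3 and 8.94, 43.6 and 11.3 across Sgo1-/+ replicates 1 to 3. Sgo1-/+ replicate 2 was the highest library, 7.63 times WT replicate 2 (95% interval 3.23 to 21.9). Pomc is also made by pituitary cells, and Tbx19, a transcription factor of those cells, had at most 3.02 normalized counts in any library. Agrp had between 5.71 and 8.12 normalized counts in WT and 4.97, 4.05 and 1.02 across Sgo1-/+ replicates 1 to 3, with intervals that overlapped in all libraries. Ghrh had 0, 2.86 and 2.03 normalized counts across WT replicates 1 to 3. Sgo1-/+ replicate 2 had 12.2 (12 counts), and the other two Sgo1-/+ libraries were at 0, which allows up to 3 counts. Pomc, Ghrh and Cartpt thus had their highest values in Sgo1-/+ replicate 2, for Cartpt within counting error of WT replicate 3. In that library all 8 striatum genes were highest too, with a median log2 ratio of 0.79, and their part in these values was not tested. Nr5a1, a transcription factor of the neighbouring ventromedial nucleus, was also highest there with 9.12 normalized counts (named after its values were seen).

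**Figure D3:**
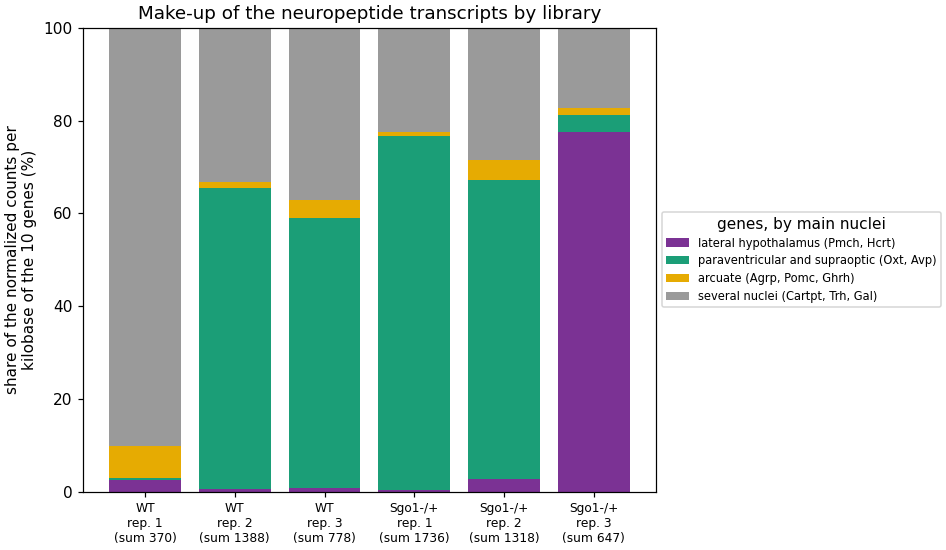
Make-up of the neuropeptide transcripts in each library, as the share (%) of the summed normalized counts per kilobase of exon of the 10 genes that came from genes of the lateral hypothalamus (purple), the paraventricular and supraoptic nuclei (green), the arcuate nucleus (yellow) and several nuclei (grey). Pmch and Hcrt make up 77.5% in Sgo1-/+ replicate 3 and at most 2.77% elsewhere, and Oxt and Avp 58.2 to 76.3% in 4 libraries but 0.506% in WT replicate 1 and 3.66% in Sgo1-/+ replicate 3.

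Per kilobase of exon, the level of the 10 genes summed to 370 normalized counts in WT replicate 1 and 647 in Sgo1-/+ replicate 3, with 778 to 1736 elsewhere. Ranked by the median over the 6 libraries, the order of these levels was Avp (278), Oxt (277), Trh (136), Cartpt (116), Gal (56.6), Pomc (11.4), Agrp (8.10), Pmch (7.18), Hcrt (4.01) and Ghrh (1.52). The ranges over libraries of all neighbours in this order overlapped. Gal was above Pomc in all 6 libraries and Cartpt above Gal in 5, while Avp was above Oxt in 2, Oxt above Trh in 4 and Trh above Cartpt in 3. By its highest library instead, Pmch reached 366 normalized counts per kilobase, above the highest value of Trh (312) and under those of Oxt (709) and Avp (616). The coefficient of variation over the 6 libraries was 213% for Pmch and 205% for Hcrt, 101% for Oxt, 89.9% for Avp and 64.6% for Trh. Of 3155 genes whose mean was within 2-fold of that of Pmch, 11 varied more, and the median variation was 26.3%. Pmch was selected for its high count in Sgo1-/+ replicate 3, which also sets its mean, so this place is a description. For Oxt, 39 of 4715 genes of like mean varied more, and for Trh 98 of 4968. Agrp was the exception, with 47.5% against a median of 62.2% for 2932 genes of like mean.

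The study asked which transcripts differ between the old Sgo1-/+ and WT brains. A quasi-likelihood test (edgeR) over all genes with enough counts, with Benjamini-Hochberg adjustment, called 0 of 16337 genes at an adjusted p under 0.05, so 0.0% were called, and 333 (2.04%) had an unadjusted p under 0.05. DESeq2's Wald test called 3 genes, Ablim3, AA465934 and LAMTOR3, none of them a neuropeptide gene. The filter on low counts kept 6 of the 10 genes (Oxt, Avp, Pomc, Cartpt, Trh and Gal), and 0 of them were called. Pmch, Hcrt, Agrp and Ghrh were fitted without the filter, where 0.0% of 26061 genes were called. The libraries of the 2 groups did not overlap for 2 of the 10 genes, Hcrt (higher in Sgo1-/+) and Agrp (lower), against 6.24% of all 26061 genes. Among the tested genes, 3.24% did not overlap with Sgo1-/+ higher and 3.57% with Sgo1-/+ lower. For both, the gap between the groups was smaller than the counting intervals, with WT at most 2.03 and Sgo1-/+ at least 3.97 for Hcrt, and WT at least 5.71 and Sgo1-/+ at most 4.97 for Agrp.

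Pmch averaged 4.60 ± 1.39 normalized counts in WT and 98.1 ± 153 in Sgo1-/+ (SD, n = 3 for this and the next means). The log2 fold change of 4.38 (SE 1.47) dropped to 1.10 once Sgo1-/+ replicate 3 was left out. On all 6 libraries it was 2.03 by limma on log2 values, which weigh a single high library less, and 2.76 with the replicate number as a block. Hcrt averaged 1.35 ± 1.17 and 37.8 ± 55.0, with 4.71 (SE 1.40) on the log2 scale and 2.07 when that library was left out. By limma on log2 values it was 2.99. Oxt had 143 ± 197 in WT and 208 ± 189 in Sgo1-/+, with a log2 fold change of 0.53 (SE 1.50). Leaving out WT replicate 1 gave -0.05, leaving out Sgo1-/+ replicate 1 gave -0.25 and leaving out WT replicate 2 gave 2.74, so single libraries set its direction. Avp had 107 ± 99.1 and 200 ± 176, and a log2 fold change of 0.90 (SE 1.39) that ranged from 0.19 without Sgo1-/+ replicate 1 to 1.67 without WT replicate 3. Trh had 266 ± 151 in WT and 152 ± 115 in Sgo1-/+, and -0.81 (SE 0.675) on the log2 scale, ranging from -1.50 without Sgo1-/+ replicate 1 to -0.26 without WT replicate 2. Cartpt had a log2 fold change of 0.20 (SE 0.444), Gal of -0.09 (SE 0.647) and Pomc of 0.50 (SE 0.740). The sign of each turned when some single library was left out. Agrp was at -0.96 (SE 0.715). Without both WT replicate 1 and Sgo1-/+ replicate 3, a fit added after seeing the data, the log2 fold change was 1.18 for Pmch, 2.47 for Hcrt, 0.52 for Oxt and 0.88 for Avp.

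**Figure D4:**
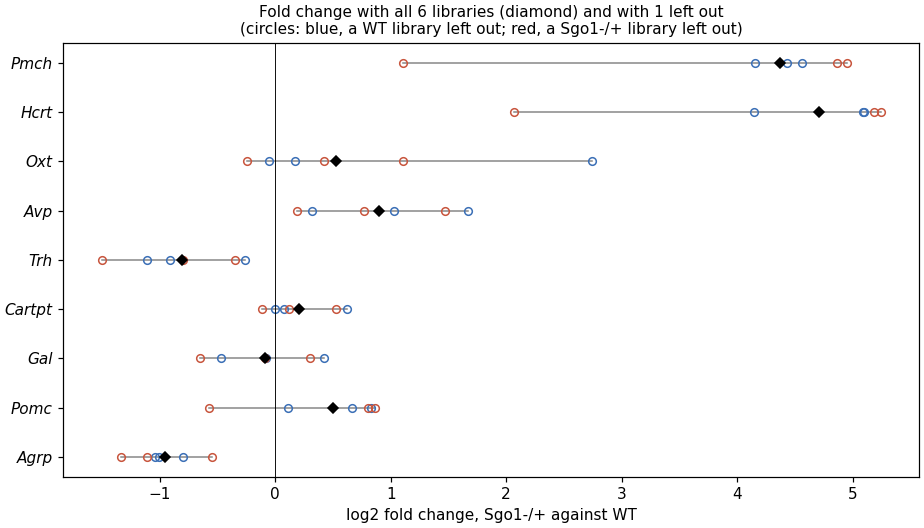
Log2 fold change of Sgo1-/+ against WT (x axis) for 9 of the genes, with all 6 libraries (black diamonds) and with each library left out in turn (circles; blue where a WT library, red where a Sgo1-/+ library was left out). Ghrh, at 0 in 3 libraries, is not drawn. Pmch moves from 4.38 to 1.10 and Hcrt from 4.71 to 2.07 without Sgo1-/+ replicate 3, and the circles of Oxt, Cartpt, Gal and Pomc fall on both sides of 0.

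The receptors of these peptides were read from a list of 15, of which 14 were in the table and 9 passed the filter. Of these, 0 were called higher and 0 lower, 4 had positive and 5 negative log2 fold changes, and the median was -0.00, beside -0.00 over all tested genes. Mchr1, the receptor for melanin-concentrating hormone, was the most counted and had 44.3, 288 and 263 normalized counts across WT replicates 1 to 3 and 381, 327 and 231 across Sgo1-/+ replicates 1 to 3. Its lowest library was WT replicate 1, where the cortex and striatum genes were also lowest, and its level in the library with the most Pmch lay within the range of the others. Its log2 fold change was 0.66 (SE 0.597, adjusted p = 0.9999 in edgeR's test). Hcrtr1 and Hcrtr2, the receptors of orexin, had 10.2 and 18.4 normalized counts in the library rich in Hcrt, next to 11.9 and 19.3 in the nearest library of each, and 48.3 and 75.5 in WT replicate 1, the highest. They were named after their values were seen. Oxtr, the oxytocin receptor, had between 24.2 and 104 normalized counts in WT and between 61.4 and 120 in Sgo1-/+, and Trhr between 41.6 and 82.8 in WT and between 12.3 and 86.1 in Sgo1-/+. Like Trh itself, Trhr had its lowest value in Sgo1-/+ replicate 3.

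The genes that turn precursors into peptides and store them were all well measured. All 15 of this list passed the filter, 0 were called in either direction, and their median log2 fold change was -0.03. Cpe, carboxypeptidase E, which trims the cut ends, had 21823 ± 7831 normalized counts in WT and 26239 ± 1150 in Sgo1-/+ (SD, n = 3), with 13808 in WT replicate 1. Pcsk2, a convertase that cuts the precursors, had 2170 in WT replicate 1 and 4959 to 6208 elsewhere. Chgb, a granin of the vesicle core, had 4831 ± 164 in WT and 5266 ± 492 in Sgo1-/+, with 4934 in the highest WT library and 4943 in the lowest Sgo1-/+ library. The groups did not overlap for 2 of the 15, Chgb and Vgf, beside 6.81% of all tested genes. Vgf, another granin, which neuronal activity is known to induce, had a log2 fold change of 0.59 (SE 0.178, unadjusted p = 0.0137 and adjusted p = 0.9999 in edgeR's test). Vgf was named after its values were seen.

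Of 18 other hypothalamic peptide genes, 9 passed the filter, 0 were called, and 7 of the 9 had positive log2 fold changes with a median of 0.11. The most counted, Sst, Tac1 and Npy, are also made widely in cortex or striatum, and all 3 were lowest in WT replicate 1. In Sgo1-/+ replicate 3, 5 of the 16 that exceeded 3 counts in some library were lowest and 0 highest, while in WT replicate 1, 9 of the 16 were lowest. Over all tested genes these libraries held the lowest value for 12.9% and 30.4%. Of the 8 neuropeptide genes other than Pmch and Hcrt, 4 (Agrp, Cartpt, Trh and Gal) were lowest in Sgo1-/+ replicate 3 and 0 highest. Of these 4, only Trh had a counting interval there that overlapped with none of its intervals in the other libraries. Of 20 hypothalamic transcription factors, 7 passed the filter and 0 were called, with a median of 0.70, beside 0.88 for the 8 striatum genes. Nkx2-1, needed to form the ventral hypothalamus and named after its values were seen, was at 0 in WT replicate 1, the library without Avp, and had between 20.3 and 48.6 normalized counts in the other 5. In Sgo1-/+ replicate 3 it had 25.6. Of the 19 factors of this list that exceeded 3 counts in some library, 6 were highest and 6 lowest in WT replicate 1. Six3 was highest in Sgo1-/+ replicate 2 (266), Isl1 likewise (120), and Foxb1 had between 78.5 and 92.1 in all 6 libraries. Six3 (54.4) and Isl1 (11.1) were lowest in WT replicate 1. All 8 striatum genes also had their highest and lowest values in these libraries, and their part in Six3 and Isl1 was not tested. The groups did not overlap for 1 of the 7 tested factors, Six3, beside 6.81% of all tested genes. Six3 had at most 196 normalized counts in WT and at least 224 in Sgo1-/+.

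**Figure D5:**
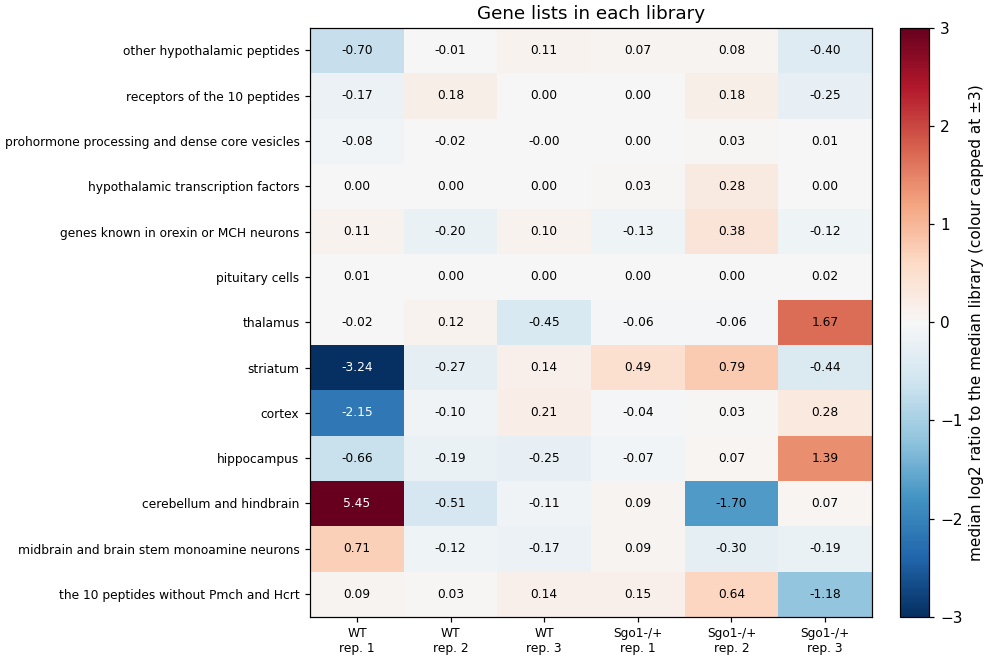
Median log2 ratio of each gene list to the median of the 6 libraries (values below 3 counts set to 3), per library; red is higher and blue lower, with colours capped at 3 in either direction. Sgo1-/+ replicate 3 has the highest medians for thalamus (1.67) and hippocampus (1.39) and the lowest for the peptide genes without Pmch and Hcrt (-1.18), and WT replicate 1 is high for cerebellum and hindbrain (5.45) and low for striatum (-3.24).

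Genes whose log2 values were most like those of each peptide over the 6 libraries were also listed, by Pearson's r, as a description with no test, since 6 libraries leave many genes alike. For Pmch these were Pln (r = 0.990), the pseudogene Gm7353 (0.981) and Abhd12b (0.973), and for Hcrt they were Chgb (0.983), Fam134b (0.982) and Mettl25 (0.980). Pln, which encodes phospholamban, ranged from 7.95 to 12.2 normalized counts outside Sgo1-/+ replicate 3, where it had 19.4. The minimum mean of 10 left many low hypothalamic peptide and transcription factor genes out of this search. For Oxt the closest were Ets2, Gad2 and Tomm20 (r = 0.996 for each), for Avp Slc35f1, Filip1 and Cdo1 (0.997, 0.995 and 0.994 over the 6 libraries), and 365 and 746 of 16309 genes had r above 0.9 with them. For Pomc they were Golt1b, Snx27 and 4933433P14Rik, for Cartpt Nsun4, 1110059G10Rik and Gm6457, for Trh Dna2, Ofd1 and Mllt4, and for Gal Rpl22l1, Ccdc85c and Fau, with r between 0.965 and 0.993.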

How the data were processed

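RNA from 1 cerebral hemisphere of each of 6 mice was made into libraries with the TruSeq V2 kit and sequenced on a MiSeq as paired reads of 150 bases. The authors aligned the reads to mm10 in Strand NGS 2.1 and deposited, for each of 38087 Ensembl genes, an estimated count per library (47.4 to 48.6% of the values are not whole). They also deposited log2 values after DESeq normalization with each gene's median subtracted, and their own fold change as a log2 value, a signed score and a ratio. Those fold changes were not used. The labels' processing notes also name BWA and edgeR. The Ensembl release and the use of strand are not given in the sources used here. The table's columns carry library numbers and not sample titles. They were assigned to genotypes by the condition pair in the header, whose deposited log2 values match these columns, and to replicates by the sample number within the run.

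Estimated counts were rounded and fitted with edgeR 4.0.16 (R 4.3.3; quasi-likelihood test, TMM, filterByExpr, Benjamini-Hochberg, 16337 genes, no covariates). Alternatives used DESeq2 1.42.0 and limma 3.58.1. Normalized counts are counts over the TMM-scaled library size, times its mean. Levels per kilobase used GENCODE M21 exons (same build; 36308 of the gene IDs matched) within the table's gene spans. The genes, 13 lists (and the added choroid plexus list) and tests were chosen with earlier results of these data known. Named genes are the 10, genes overlapping their exons, the 3 most counted genes of each list and the 3 most alike (log2 of normalized counts plus 1, mean of at least 10), and others as stated. Galr3 was not in the table under any matched ID and is not used here. Labels do not say more than 1 mouse per library, so p-values measure the spread between these mice. Sequences are from RefSeq and GENCODE transcripts.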

Additional observations from a re-analysis of the deposited data

How the results depend on the processing

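The count of called genes was 0 in 13 of 16 alternatives. It was 3 with DESeq2's Wald test, and again 3 with its outlier filter off (chosen after seeing the data, as were limma on the authors' values, with 0, and the fit without both WT replicate 1 and Sgo1-/+ replicate 3, with 0). Leaving out 1 library gave between 0 and 1 called genes, the 1 being without Sgo1-/+ replicate 2. No gene of the lists was called in any of the 16. The replicate number as a block gave 0 called genes. Deviations of libraries with the same number correlated at -0.15, 0.01 and -0.21, so no pairing by number was seen. The outlying libraries weigh on these values, which therefore cannot exclude a pairing. The log2 fold changes moved by over 1 SD of the libraries in 6 of 153 alternatives, a wide limit that the outlying libraries themselves set, so it says little of stability: Pmch ranged from 1.10 to 4.95, Hcrt from 2.07 to 5.24 and Oxt from -0.25 to 2.74. Shares held by the highest library moved in 0 of 20, but these changed only the scaling of libraries and could hardly move a share. Of the lists of most alike genes, 11 of 16 lost more than 1 gene with log2 counts plus 5 or without Sgo1-/+ replicate 3. With at least 10 counts in every library required, only Cartpt, Trh and Gal remained. Depth limits Agrp, Ghrh, and Hcrt and Pmch outside Sgo1-/+ replicates 2 and 3, where a few counts decide the value.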
